A study of Mus musculus with 6 samples.

Results

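The genes of phospholipid scramblases and flippases were examined in HT22 cells, an immortalised mouse hippocampal line, after induction of the transcription factor KLF13. The set was a list of 9 named genes (Xkr8, Xkr6, Xkr4, Ano6, Plscr1, Plscr3, Atp11a, Atp8a1 and Tmem30a) taken by symbol from a count table of 29493 genes. Of these, 8 had values, each with enough counts in all 6 libraries to pass the filter on low counts that left 18067 genes tested, and Xkr4 is not analysed here. The list was chosen by function and selected on the Dox against vehicle fold changes of these same libraries, led by the low Xkr8 level, so the fold changes, their errors and their place in the test over all genes describe the chosen genes and support nothing further.

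RNA sequencing covered 6 libraries of 1 line, HT22-TR/TO-V5Klf13-1, which carries a stable transgene for V5-tagged KLF13 under control of the tet repressor. The Dox group (n = 3) received doxycycline at 1 µg/ml for 8 hours and the vehicle group (n = 3) did not. Both groups carry the transgene, and no library combines doxycycline with cells lacking it, so effects of KLF13 and of the drug cannot be told apart. Whether the 3 samples of a group were grown as separate cultures is not stated in the labels. The p-values therefore cover only the variation among these libraries, and that variation may be technical.

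The inner and outer leaflets of the plasma membrane differ in lipid composition, with phosphatidylserine held on the inner side. Flippases of the P4-ATPase family use ATP to move phospholipids, among them phosphatidylserine, inward. Most of these flippases leave the endoplasmic reticulum only when bound to a beta subunit such as TMEM30A (CDC50A). Scramblases let lipids move in both directions without ATP: TMEM16F, the product of Ano6, opens on calcium, whereas XKR8 is switched on by caspase cleavage during apoptosis, when caspases also cut the flippase ATP11A, and exposed phosphatidylserine then marks the cell for engulfment.

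Total counts ranged from 41595045 to 48171814 in the Dox libraries and from 38566798 to 52930384 in the vehicle libraries. Klf13 itself stood at 205, 188 and 184 CPM (counts-per-million values, scaled to the effective library size) with Dox, against 37.0, 36.1 and 39.1 CPM with vehicle, which fits the labels of all 6 libraries. Reads of the transgene and of the endogenous gene cannot be told apart in these counts. Defining markers of neurons were low: of 12 listed, 4 were tested, and Map2 averaged 0.103 CPM with Dox and 0.175 CPM with vehicle. The summed neuronal markers ranged from 23.9 to 24.6 CPM with Dox and from 76.6 to 78.0 CPM with vehicle, most of it Tubb3. Fibroblast markers were abundant, their sum ranging from 8339 to 8727 CPM with Dox and from 10220 to 10770 CPM with vehicle, and 5 of 6 were lower with Dox. Summed markers of astrocytes ranged from 44.1 to 47.3 CPM with Dox and from 37.3 to 40.1 CPM with vehicle, nearly all of it Slc1a3, and those of microglia from 6.91 to 7.80 CPM with Dox and from 5.57 to 5.77 CPM with vehicle, nearly all of it Ptprc. Oligodendrocyte markers summed to 1.03 to 1.27 CPM with Dox and 1.72 to 2.25 CPM with vehicle, and endothelial markers to 3.76 to 4.84 CPM with Dox and 2.93 to 3.34 CPM with vehicle. P2ry12, a defining marker of microglia, had 0 counts in all 3 Dox libraries and in 2 of the 3 vehicle libraries. The part of these marker shifts in the results below was not tested. In bulk RNA, fewer cells of a kind and less RNA per cell cannot be told apart.

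Promoter sequences are shown for 3 genes with an upstream window in the RefSeq table, because KLF and SP factors are known to bind GC-rich boxes. They were picked after their values were seen, to set different outcomes side by side. Each is the 250 bases before the annotated start, 5′ to 3′ on the gene's strand (RefSeq, GRCm38.p6), with capitals marking the GC box GGGCGG or its reverse complement CCGCCC. Plscr3 (chr11:69846122-69846371, plus strand, the outermost of its 3 annotated starts) was lower with Dox, Ano6 (chr15:95790593-95790842, plus strand) differed least, and Atp8a1 (chr5:67847432-67847681, minus strand) overlapped between the groups.
Plscr3: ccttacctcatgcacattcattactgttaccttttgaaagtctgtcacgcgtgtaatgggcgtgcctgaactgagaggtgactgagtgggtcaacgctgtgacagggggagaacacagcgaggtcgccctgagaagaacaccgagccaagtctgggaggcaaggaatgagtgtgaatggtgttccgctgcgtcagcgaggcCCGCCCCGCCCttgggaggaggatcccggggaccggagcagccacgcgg
Ano6: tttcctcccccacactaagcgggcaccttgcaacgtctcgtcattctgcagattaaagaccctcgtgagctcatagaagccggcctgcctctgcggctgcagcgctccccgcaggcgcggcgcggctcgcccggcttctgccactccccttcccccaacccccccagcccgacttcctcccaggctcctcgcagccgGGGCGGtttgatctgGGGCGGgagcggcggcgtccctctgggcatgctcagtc
Atp8a1: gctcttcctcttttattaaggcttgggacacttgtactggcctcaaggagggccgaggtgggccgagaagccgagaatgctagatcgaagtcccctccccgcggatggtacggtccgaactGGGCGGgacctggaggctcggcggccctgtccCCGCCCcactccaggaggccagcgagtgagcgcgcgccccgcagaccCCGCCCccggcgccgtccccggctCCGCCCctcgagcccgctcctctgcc

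A GC box was found on either strand in a window of 5 of the 6 listed genes that have one (8 windows), against 35.4% of all 27025 genes with a window of the same length. Xkr8, Xkr6 and Xkr4 have no window. The count in a window was 4 for Atp11a and Atp8a1, 2 for Ano6 and for the outermost Plscr3 window, 1 for Plscr1 and 0 for Tmem30a. The pair in the outermost Plscr3 window shares its middle base. Each inner Plscr3 window held 3, so the count for Plscr3 depends on the start chosen. The RefSeq starts differ from those of GENCODE M21 (GRCm38). The Plscr1 window (chr9:92249944-92250193) lies inside the GENCODE span of the gene, which starts at 92249750. Most or all of each inner Plscr3 window and part of the Tmem30a window also lie inside the GENCODE spans. The shorter CACCC motif, or GGGTG on the other strand, counted independently of the GC box, was in a window of 4 of the 6 genes, against 54.5% of all genes, and for Plscr3 only in the inner windows. GC content was 74.4% for Atp11a, 70.4% for Atp8a1, 68.4% for Ano6, 62.8% for Tmem30a and 47.2% for Plscr1. It was 59.6% for the outermost Plscr3 window and 69.6% for each inner one. The median over all 32851 windows was 52.4%. The shares over all genes include genes not expressed here and are not matched for GC content, so no enrichment is read from them. A match of letters says nothing of whether a factor binds there.

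In the fit over all genes (edgeR quasi-likelihood test, adjusted p under 0.05), 7 of the 8 genes were called lower with Dox, 0 higher, and Atp8a1 was not called. Of all genes tested 54.7% were called: 28.8% were lower (5203 genes) and 25.9% higher (4687 genes). The split depended on scaling, since upper-quartile scaling gave 4457 lower and 6246 higher. The median log2 fold change was -0.51 over the 8 genes and 0.018 over all genes tested. For the same 7 genes every Dox library lay below every vehicle library, which was so for 32.2% of all genes tested, and groups separated in either direction for 64.0%. Because the comparison entered the choice of the genes, these calls and shares are a description of the list and not a test of it, and nothing is read from them.

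**Figure D1:**
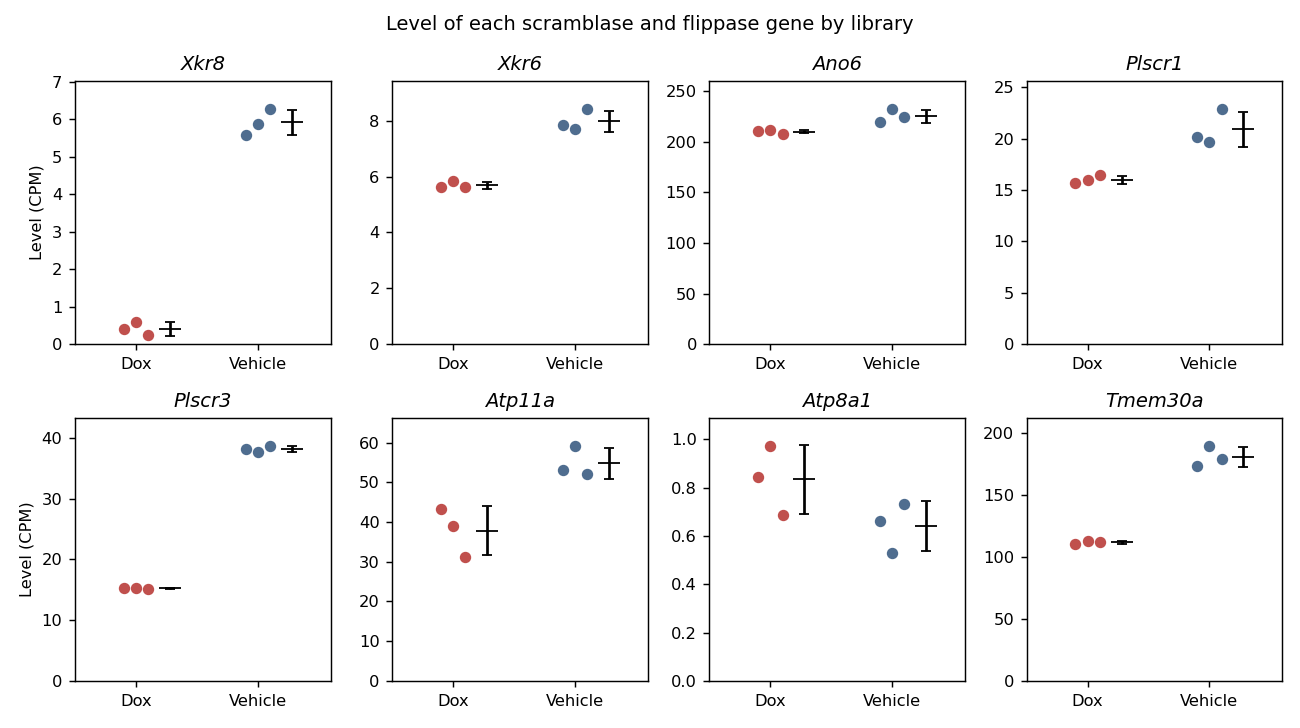
Level of each gene in CPM (y axis from 0, its own scale in each panel) in the 3 Dox and the 3 vehicle libraries; points are libraries, and the bar beside them is the mean ± SD. Dox points lie below all vehicle points in 7 panels, and the groups overlap for Atp8a1.

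Xkr8, the caspase-activated scramblase of dying cells, had the largest difference. Its level was 0.399, 0.588 and 0.236 CPM in Dox libraries 1 to 3, against 5.59, 5.88 and 6.27 CPM in vehicle libraries 1 to 3. The groups lie far apart, and the highest Dox library, replicate 2, is well below the lowest vehicle library. These levels rest on 17, 29 and 11 counts with Dox and on 211, 245 and 325 counts with vehicle, and the exact 95% Poisson intervals of the Dox counts run from 9.90 to 27.2, from 19.4 to 41.7 and from 5.49 to 19.7 (counting error only). The log2 fold change was -3.84 ± 0.25 (SE), a 14.3-fold lower level, and Xkr8 ranked 16 from the lowest among 18067 genes. The relative spread between libraries was 43.1% of the mean with Dox and 5.73% with vehicle, and the log2 fold change was -3.56 without Dox replicate 3 and -4.22 without Dox replicate 2. In GENCODE M21 (GRCm38) Xkr8 occupies bases 132724897 to 132732546 of chromosome 4, minus strand, and its exons overlap those of no other annotated gene. Of 4196 windows of 50 bases in its longest coding transcript, 35 (0.834%) also occur in transcripts of 313 other genes. How the authors counted reads from such windows is not stated.

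Xkr6, an XK-family relative in which scramblase activity is not established, changed far less. Its level was 5.61, 5.84 and 5.61 CPM with Dox, against 7.85, 7.68 and 8.41 CPM with vehicle, and the groups did not overlap. The log2 fold change was -0.49 ± 0.057 (SE). The authors' deposited value is -0.48, with a larger standard error of 0.12. Spreads between libraries were 2.28% of the mean with Dox (239 to 288 counts) and 4.77% with vehicle (296 to 436 counts). Both are below counting error, so the SE of 0.057 understates the uncertainty. The gene is on the plus strand of chromosome 14, 63606503 to 63820809, and shares 326 exonic bases with the antisense gene Gm15918. Xkr8 and Xkr6 therefore stood at 6.89% and 71.3% of their vehicle means with Dox.

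The XKR8 protein reaches the plasma membrane in mouse cells only together with basigin (Bsg) or neuroplastin (Nptn). Of 4 tested genes reported here as partners and activators of XK-family scramblases, 2 fell and 2 rose (median log2 fold change -0.057). The shares called over all genes tested were 28.8% lower and 25.9% higher. The partner genes went opposite ways: Nptn fell, at 50.9 ± 0.941 CPM with Dox and 84.7 ± 0.661 CPM with vehicle (adjusted p = 4.3e-06, edgeR), and Bsg rose slightly, at 496.5 ± 20.03 CPM with Dox and 451 ± 19.2 CPM with vehicle (SD, n = 3 each; log2 fold change 0.14 ± 0.042 SE, adjusted p = 0.032, edgeR). The call of Bsg was lost without Dox replicate 2 (log2 fold change 0.14, adjusted p = 0.090), without Dox replicate 3 (0.11, 0.11), without vehicle replicate 2 (0.11, 0.092) and without vehicle replicate 3 (0.13, 0.095), and with a replicate block (0.14, 0.071). The Nptn spreads were 1.85% of the mean with Dox (2184 to 2545 counts) and 0.780% with vehicle (3201 to 4355 counts). Both are below counting error and are no measure of reproducibility. Nptn shares 344 exonic bases with Rec114 on the opposite strand. Vps13a, a lipid transfer protein that binds XK, had 75.3 ± 2.70 CPM with Dox and 89.6 ± 5.92 CPM with vehicle (SD, n = 3 each; adjusted p = 0.0079, edgeR). Xrcc4, a DNA repair protein of which a fragment activates XKR4, had 7.22 ± 0.429 CPM with Dox and 5.81 ± 0.610 CPM with vehicle (SD, n = 3 each; adjusted p = 0.027, edgeR). The call of Xrcc4 was lost without Dox replicate 1 (log2 fold change 0.27, adjusted p = 0.077) or 2 (0.32, 0.055), without vehicle replicate 1 (0.23, 0.054) or 3 (0.33, 0.061), with a replicate block (0.31, 0.068), with no filter (0.32, 0.057) and with the DESeq2 Wald test (0.31, 0.067).

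Per kilobase of transcript, Bsg stood 3316, 2355 and 6071 times above Xkr8 in Dox libraries 1 to 3, against 235, 206 and 198 times in vehicle libraries 1 to 3. For Nptn the ratio to Xkr8 was 120.4, 82.2 and 197 with Dox, against 14.2, 13.6 and 12.6 with vehicle. Both partner transcripts were therefore more abundant than Xkr8 in all 6 libraries. The other XK-family genes tested also fell: Xkrx had 0.913 ± 0.129 CPM with Dox and 1.36 ± 0.0873 CPM with vehicle (adjusted p = 0.011), and Xkr5 had 2.28 ± 0.294 CPM with Dox and 3.21 ± 0.379 CPM with vehicle (SD, n = 3 each; adjusted p = 0.018, edgeR). Neither call held with the DESeq2 Wald test (adjusted p = 0.12 for Xkrx and 0.054 for Xkr5), and that of Xkr5 was also lost without Dox replicate 1 (log2 fold change -0.45, adjusted p = 0.058), without Dox replicate 3 (-0.42, 0.056) and without vehicle replicate 2 (-0.40, 0.051).

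Ano6, the calcium-activated scramblase that acts on platelets, was the most abundant scramblase transcript of the list and the least changed. Its level was 210.3, 211 and 208 CPM with Dox, against 219, 232 and 224 CPM with vehicle. The groups did not overlap, but the gap between them was small: the log2 fold change was -0.10 ± 0.028 (SE), a 1.07-fold lower level. The log2 fold change was -0.0078 with upper-quartile scaling, under which the difference nearly vanishes. Ano6 was not among the genes called there, nor with no filter on low counts (-0.095), without Dox replicate 3 (-0.093) or without vehicle replicate 3 (-0.11). Ano6 spans chromosome 15, 95790843 to 95974751, on the plus strand, and overlaps the antisense gene A130051J06Rik by 214 exonic bases; that gene averaged 0.888 CPM with Dox and 0.928 CPM with vehicle.

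The other TMEM16 genes, several of which encode chloride channels, were tested in 4 cases. Of these 2 fell, 0 rose and 2 did not pass (median log2 fold change -0.45), and 1 rose with upper-quartile scaling. Over all genes tested 28.8% were called lower and 25.9% higher. Ano10 fell to 23.2 ± 0.0795 CPM with Dox, against 38.4 ± 6.89 CPM with vehicle (adjusted p = 0.0025), and Ano8 had 32.1 ± 1.39 CPM with Dox and 39.5 ± 0.818 CPM with vehicle (SD, n = 3 each; adjusted p = 0.0013, edgeR). The vehicle spread of Ano10 comes from replicate 1, at 46.3 CPM against 35.2 and 33.6 CPM in the others. Its Dox spread, 0.343% of the mean, is below the counting error of 988, 1148 and 1075 counts. That spread is therefore no measure of reproducibility.

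Plscr3, whose protein acts on cardiolipin in mitochondria, had the second largest difference. It stood at 15.2, 15.3 and 15.2 CPM with Dox, against 38.2, 37.7 and 38.7 CPM with vehicle. Libraries of a group agreed within a spread of 0.621% of the mean with Dox and 1.33% with vehicle. These spreads are below the counting error of the 648, 757 and 705 Dox counts and the 1442, 1569 and 2006 vehicle counts. They are therefore no measure of reproducibility. The log2 fold change was -1.33 ± 0.035 (SE), a 2.51-fold lower level, and the authors' deposited standard error was larger, at 0.066. The gene lies on the plus strand of chromosome 11, 69846376 to 69852058, and 28.3% of its exonic bases overlap Tnk1 on the opposite strand. Tnk1 itself had 0 counts in the Dox libraries and 0, 0 and 2 counts in the vehicle libraries.

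Plscr1, an interferon-inducible member named as a scramblase although its part in lipid scrambling is disputed, differed less. Its level was 15.6, 16.0 and 16.4 CPM with Dox, against 20.2, 19.7 and 22.9 CPM with vehicle, with a log2 fold change of -0.39 ± 0.067 (SE). The groups did not overlap, and vehicle replicate 3 stood above the other vehicle libraries. Of 2253 windows of 50 bases in its longest coding transcript, 13.2% also occur in Gm5530, which had 1.98 ± 0.194 CPM with Dox and 2.58 ± 0.268 CPM with vehicle (SD, n = 3 each). How the authors counted reads that match both is not stated. The gene is on the plus strand of chromosome 9, 92249750 to 92272278.

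Of the other PLSCR genes 2 were tested and neither passed. Plscr2, its neighbour on chromosome 9, had 19.2, 18.5 and 21.6 CPM with Dox, against 18.7, 17.8 and 18.8 CPM with vehicle, and the 95% interval of its log2 fold change ran from -0.064 to 0.27. Plscr4 had 4.74 ± 0.590 CPM with Dox and 4.06 ± 0.476 CPM with vehicle (SD, n = 3 each), with an interval from -0.076 to 0.52. The groups overlapped for both genes.

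**Figure D2:**
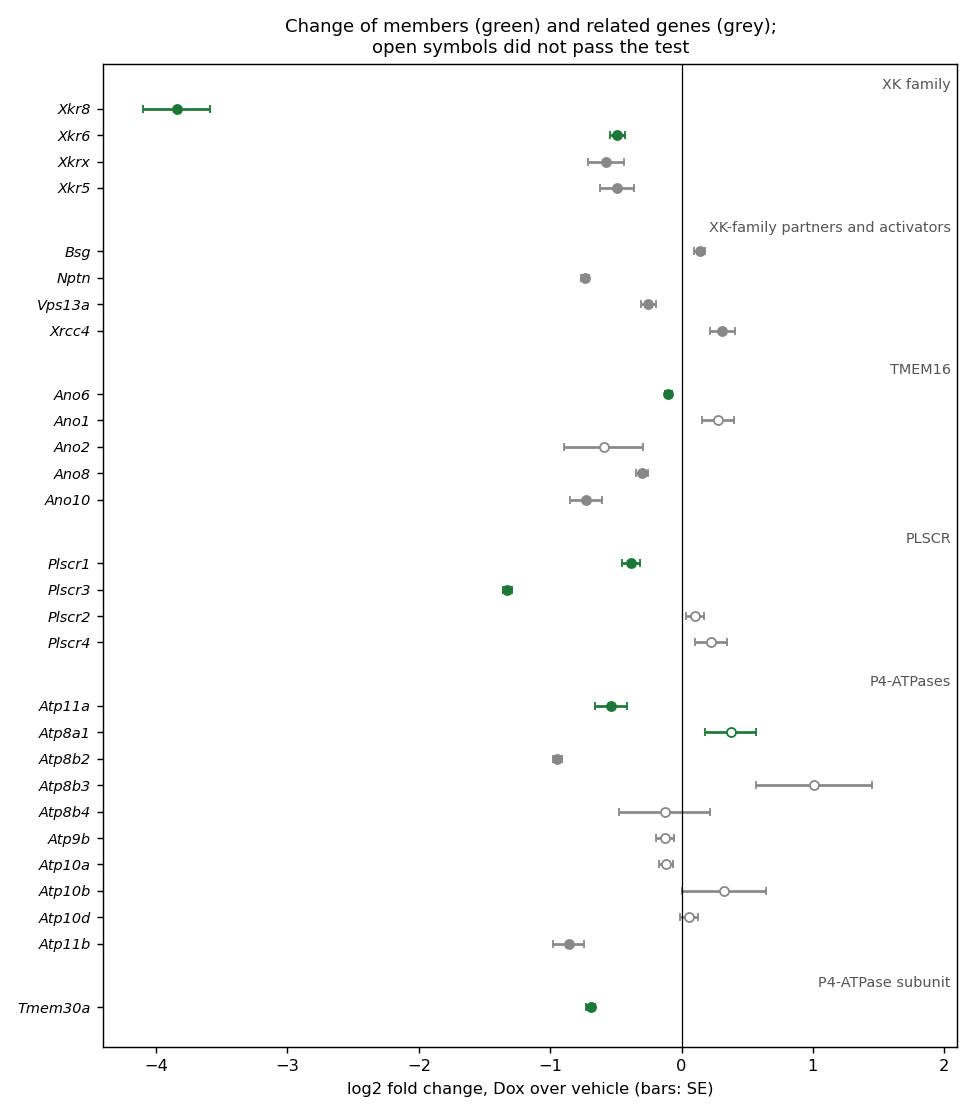
Log2 fold change of Dox over vehicle (x axis) with its SE for the listed genes in green and for the related genes reported here in grey, by family. Filled symbols passed the test at an adjusted p under 0.05 and open ones did not; Xkr8 lies at -3.84, and Plscr3 next among the listed genes at -1.33.

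Among the flippase genes, Tmem30a, which encodes the beta subunit, was lower with Dox by a margin far wider than the spread. It stood at 110.5, 113 and 112 CPM with Dox, against 173, 189.8 and 179.6 CPM with vehicle. The log2 fold change was -0.69 ± 0.037 (SE), so that 61.9% of the vehicle mean remained, and the groups did not overlap. Tmem30a is on the minus strand of chromosome 9, 79768943 to 79793507, and shares no 50-base window with a transcript of another gene.

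Atp11a, a phosphatidylserine flippase of the plasma membrane, varied more between libraries. Its level was 43.2, 39.0 and 31.1 CPM with Dox, against 53.2, 59.2 and 52.0 CPM with vehicle. Dox replicate 3 was the lowest library, and the groups did not overlap. The log2 fold change was -0.54 ± 0.12 (SE), and it ranged from -0.64 without Dox replicate 1 to -0.41 without Dox replicate 3. Atp11a spans chromosome 8, 12757014 to 12868728, on the plus strand.

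Atp8a1, a flippase known from brain and endosomes, was close to the limit of detection. It had 36, 48 and 32 counts with Dox and 25, 22 and 38 counts with vehicle, or 0.846, 0.973 and 0.688 CPM with Dox against 0.663, 0.528 and 0.733 CPM with vehicle. The groups overlapped: vehicle replicate 3 was above Dox replicate 3. The log2 fold change was 0.38 ± 0.19 (SE), with a 95% interval from -0.094 to 0.84, so neither a difference nor its absence was established. The gene is on the minus strand of chromosome 5, 67618140 to 67847434.

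Of the other P4-ATPase genes reported here 8 were tested. With Dox 2 fell, 0 rose and 6 did not pass (median log2 fold change -0.12), and 1 rose without vehicle replicate 3. The shares called over all genes tested were 28.8% lower and 25.9% higher. Atp8b2, a phosphatidylcholine flippase, had 83.9 ± 2.78 CPM with Dox and 161.5 ± 2.11 CPM with vehicle (adjusted p = 3.0e-06), and Atp11b had 86.8 ± 13.5 CPM with Dox and 157 ± 12.1 CPM with vehicle (SD, n = 3 each; adjusted p = 0.0010, edgeR). Atp10a, a phosphatidylcholine flippase named after its values were seen, did not pass, with 107 ± 4.64 CPM with Dox and 116 ± 6.66 CPM with vehicle (SD, n = 3 each; 95% interval of the log2 fold change -0.24 to 0.0090).

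The level of the beta subunit was then set beside the summed level of its possible partners, 9 P4-ATPases tested and reported here, leaving out Atp9b, whose product does not need a TMEM30 protein. Per kilobase of transcript the sum was 65.2, 71.5 and 67.4 CPM per kb in Dox libraries 1 to 3, against 95.7, 105.5 and 97.5 CPM per kb in vehicle libraries 1 to 3. Tmem30a stood at 30.2, 30.9 and 30.7 CPM per kb with Dox, against 47.4, 51.9 and 49.1 CPM per kb with vehicle. Subunit and sum were thus both lower with Dox, and no library of one group reached the other. The ratio of Tmem30a to the sum was 0.463, 0.432 and 0.455 with Dox, against 0.495, 0.492 and 0.504 with vehicle.

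The direction of that ratio depended on the transcript length. With the median length of the coding transcripts, a setting chosen after seeing the data, the ratio was 0.134, 0.134 and 0.137 with Dox, against 0.127, 0.131 and 0.130 with vehicle, while the sum was still lower with Dox. Atp8b2, whose median coding transcript is far shorter than its longest, then held 54.1 to 58.9% of the sum with Dox and 63.2 to 65.5% with vehicle, against 20.1 to 23.4% with Dox and 27.2 to 29.2% with vehicle at the longest length. The sum also holds Atp10d, annotated in GENCODE M21 as a polymorphic pseudogene. Without it the ratio was 0.546, 0.507 and 0.542 with Dox, against 0.551, 0.548 and 0.557 with vehicle. No direction is therefore given for the level of the subunit relative to its partners.

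At the longest length Atp11a made up 8.78, 7.23 and 6.12% of the sum in Dox libraries 1 to 3, against 7.36, 7.43 and 7.06% in vehicle libraries 1 to 3, so the groups overlapped, and Atp8a1 supplied 0.125 to 0.166% with Dox and 0.0613 to 0.0919% with vehicle. At the median length the share of Atp11a was 4.45 to 6.13% with Dox and 4.41 to 4.79% with vehicle, again with overlap.

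**Figure D3:**
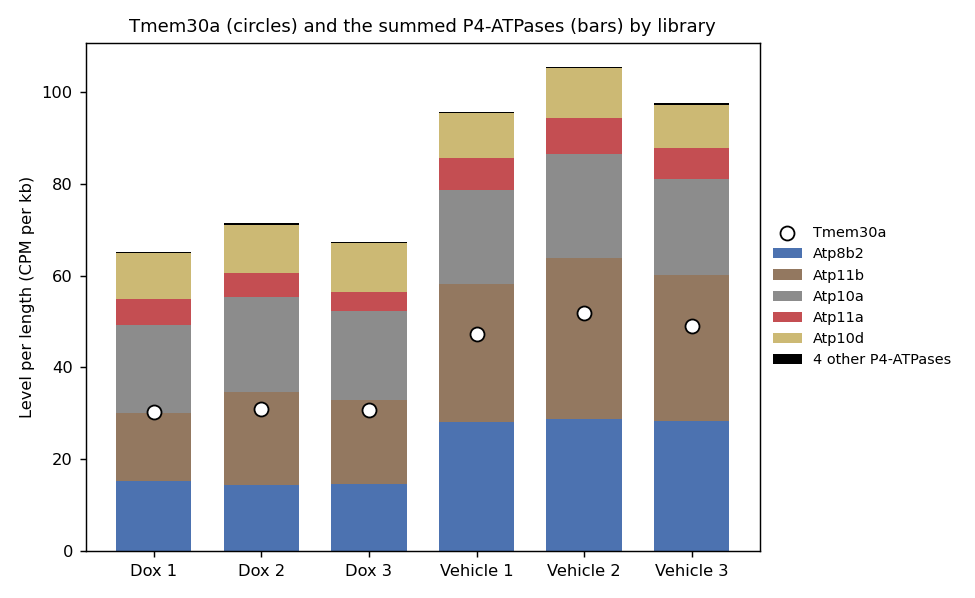
Summed level of 9 P4-ATPase genes (stacked bars, CPM per kb of the longest coding transcript) and level of Tmem30a (circles, same axis) in each of the 3 Dox and 3 vehicle libraries. The bars reach 65.2 to 71.5 with Dox and 95.7 to 105.5 with vehicle, and the circles 30.2 to 30.9 with Dox and 47.4 to 51.9 with vehicle; bar heights depend on the transcript length chosen.

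Levels between the 8 genes were compared per kilobase of the longest coding transcript. With Dox the order was Ano6 (42.6 ± 0.352 CPM per kb), Tmem30a (30.6 ± 0.352), Plscr1 (6.96 ± 0.170), Plscr3 (5.47 ± 0.0340), Atp11a (5.01 ± 0.813), Xkr6 (1.92 ± 0.0437), Atp8a1 (0.102 ± 0.0175) and Xkr8 (0.0961 ± 0.0414 CPM per kb; SD, n = 3). With vehicle it was Tmem30a (49.5 ± 2.28 CPM per kb), Ano6 (45.7 ± 1.34), Plscr3 (13.7 ± 0.182), Plscr1 (9.09 ± 0.738), Atp11a (7.26 ± 0.510), Xkr6 (2.69 ± 0.128), Xkr8 (1.39 ± 0.0798) and Atp8a1 (0.0784 ± 0.0127 CPM per kb; SD, n = 3). Neighbours in the vehicle order did not overlap, whereas with Dox the ranges of Plscr3 and Atp11a overlapped, as did those of Atp8a1 and Xkr8. With the median length of the coding transcripts in place of the longest, Ano6 was first and Atp11a stood above Plscr1 in both groups. Atp11a and Plscr1 were then at 12.2 and 8.49 CPM per kb with Dox and at 17.6 and 11.1 CPM per kb with vehicle. Neither Dox overlap remained at that length. Atp8a1 spanned 0.172 to 0.243 CPM per kb and Xkr8 0.0557 to 0.138, while Atp11a spanned 10.0 to 13.9 and Plscr3 8.056 to 8.155.

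The ratio of Ano6 to Xkr8 per kilobase was 454, 309.7 and 758 with Dox, against 33.7, 34.0 and 30.8 with vehicle. That of Ano6 to Plscr3 was 7.81, 7.78 and 7.75 with Dox, against 3.24, 3.48 and 3.28 with vehicle. Ano6 was above Xkr8 and Plscr3 in all 6 libraries. The wider margin in every Dox library restates the fold changes on which the genes were chosen. The ratios to Xkr8 with Dox rest on 11 to 29 Xkr8 counts a library.

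**Figure D4:**
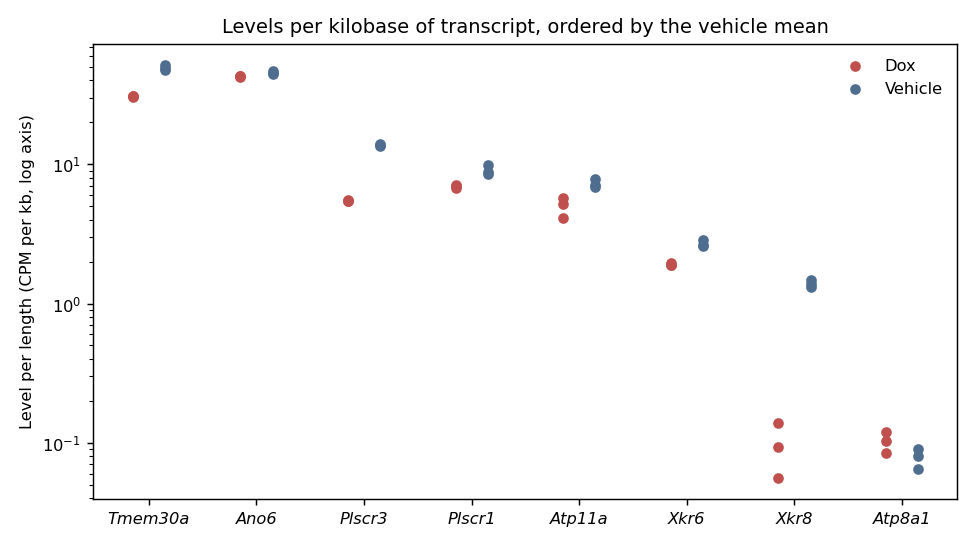
Level of each gene per kilobase of its longest coding transcript (log axis) in the 3 Dox (red) and 3 vehicle (blue) libraries, ordered by the vehicle mean. Xkr8 stands at 1.32 to 1.48 CPM per kb with vehicle and, at this transcript length, reaches the level of Atp8a1 with Dox.

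Against all 18067 genes tested, the listed genes were spread widely. Counted from the lowest log2 fold change, Xkr8 ranked 16, Plscr3 819, Tmem30a 2510, Atp11a 3295, Xkr6 3610, Plscr1 4411, Ano6 7321 and Atp8a1 14521. The central range of all genes, from the 10th to the 90th percentile, was -0.88 to 0.58, so that Xkr8 and Plscr3 lay below it and the other 6 within it.

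**Figure D5:**
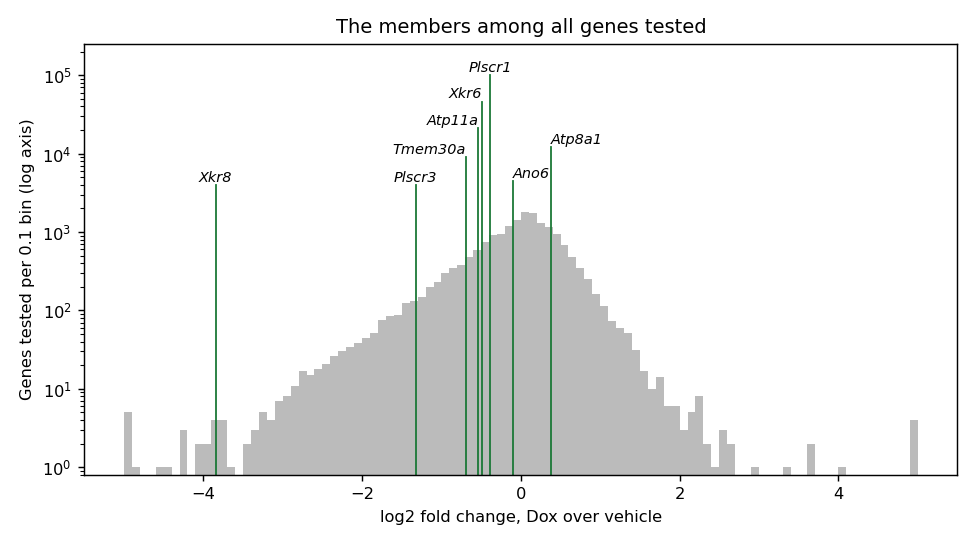
Number of genes tested per 0.1 bin of log2 fold change, Dox over vehicle (log y axis; values beyond 5 are placed in the end bins), with a green line for each listed gene. Xkr8 and Plscr3 lie below the 10th percentile of -0.88.

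The genes whose pattern over the 6 libraries was most like that of Xkr8 were found by Pearson's r of log2(CPM + 1) among 11134 genes with at least 2 CPM in a group. They were Nab2, a corepressor of EGR factors (r = 0.9999), Itpr1, an IP3 receptor (0.9998), Wbp4, a spliceosome protein (0.9996), Tbc1d25, a Rab GTPase regulator of autophagy (0.9996), and Dcaf5, a cullin ligase adaptor (0.9995). Nab2 had 28.04, 30.01 and 25.4 CPM with Dox, against 84.5, 86.6 and 89.5 CPM with vehicle. An r over 0.99 was reached by 1236 genes, since the group difference and the libraries are shared by all of them. The r is also blind to the size of the change: Nab2 was 3.12-fold and Wbp4 1.56-fold lower. Rank among these genes also depends on differences within a group, and those of Xkr8 with Dox rest on 17, 29 and 11 counts. Nothing shared beyond the group difference is read from it.

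The authors' deposited table called 6 of the 8 genes, all but Ano6 and Atp8a1, at an adjusted p of 0.01 or less, against 40.3% of the 19125 genes to which it gives one. For Xkr8 the authors' deposited table gives a log2 fold change of -3.34 ± 0.25 (its standard error), and for Plscr3 it gives -1.32 ± 0.066. The DESeq2 Wald fit run here on the deposited counts gave -3.85 for Xkr8. How the deposited fold changes were estimated is not stated, so the measures may differ. The deposited values for the other 6 genes range from -0.69 for Tmem30a to 0.30 for Atp8a1.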

How the data were processed

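RNA was extracted with TRIzol and libraries were made by a sequencing core, per the labels' protocols. FastQC 0.11.3, HISAT2 2.1.0, StringTie 1.3.3, DESeq2 and the build GRCm38 are named, per the submitters' processing notes, without roles. The sources used here do not give the annotation, the strand setting or the handling of multi-mapping reads. Raw counts per gene symbol were deposited as whole numbers. The authors' comparison table holds, per the file headers, a log2 fold change with its error, p-values raw and adjusted, a score (the test statistic) and the normalized signal averaged over libraries.

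From the counts, genes were filtered with filterByExpr, scaled by TMM (factors 0.970 to 1.03) and compared over the 6 libraries, with no covariate, by the quasi-likelihood test of edgeR 4.0.16 (R 4.3.3, limma 3.58.1), adjusted by Benjamini-Hochberg over all genes. SE was taken as the size of the log2 fold change divided by the root of the F statistic, and 95% intervals use the t distribution of the fit. No permutation test was run, since 3 against 3 allows no exact p under 0.1. Pooled over genes, replicates differed beyond sampling noise, with a chi-square over its degrees of freedom of 12.1 to 15.1. This does not hold for each gene, since the spreads of Plscr3, Xkr6 and Nptn were below counting error.

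Of 29493 symbols, 27399 matched 1 gene of GENCODE M21 (GRCm38), used for coordinates, lengths and exonic overlap. It may differ from the authors' annotation. Promoter windows are from RefSeq (GRCm38.p6) and were found for 6 of the 9 genes.

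Some genes of the lists are not reported here and were left out of the list counts and sums. The genes, the lists of related genes and the tests were chosen with earlier results of these data known. Related genes are named by rule: Bsg and Nptn; in each list the 3 smallest adjusted p under 0.05, and every tested gene of lists with 3 or fewer; and the 5 genes most like Xkr8, leaving out predicted and clone-based symbols. Settings varied were the scaling (DESeq2 size factors or upper quartile), the DESeq2 1.42.0 Wald test, no filter, a mean CPM of at least 5, a replicate block and leaving out each library. For the summed P4-ATPases, the median transcript length and a sum without Atp10d were added after seeing the data.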

Additional observations from a re-analysis of the deposited data

How the results depend on the processing

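The listed genes were chosen on this comparison, so how their values hold is a description and no support. Over the alternatives the log2 fold change ranged from -4.22 to -3.56 for Xkr8, -1.34 to -1.23 for Plscr3, -0.72 to -0.60 for Tmem30a, -0.64 to -0.41 for Atp11a, -0.52 to -0.40 for Xkr6 and -0.43 to -0.29 for Plscr1; Xkr8 and Atp8a1 were not tested under the filter at a mean of 5 CPM. Ano6 was no longer called with upper-quartile scaling (log2 fold change -0.0078, where the median of all genes moved to 0.11), with no filter (-0.095) and without Dox or vehicle replicate 3; its values without 1 library ranged from -0.12 to -0.081. Atp8a1 ranged from 0.25 to 0.50. The count of listed genes called lower was 6 or 7. Of the 46 related genes tested, 6 rose and 22 fell, beside 25.9% called higher and 28.8% called lower over all genes tested. Rises numbered 10 with upper-quartile scaling, 3 with a replicate block and 3 to 5 without 1 library. Falls numbered 17 to 22 over all alternatives. The cause of these changes was not tested. The groups share replicate numbers, but deviations of same-numbered libraries correlated at 0.034, 0.049 and -0.060, and 2 of 6 libraries matched their own number best, so samples were not treated as pairs. With a replicate block 5097 genes were lower and 4602 higher, Xkr8 stood at -3.87, the listed genes kept their calls, and among the related genes named Bsg, Xrcc4 and Vmp1 lost theirs. The log2 ratio of Tmem30a to the summed P4-ATPases, Dox over vehicle, was -0.14 at the longest transcript length, 0.059 at the median length and -0.055 without Atp10d. Depth limits Xkr8 with Dox, at 11 to 29 counts a library, and Atp8a1, at 22 to 48.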

Other observations

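Genes that act before and after phosphatidylserine exposure were also measured. Among 11 tested genes for phosphatidylserine bridging proteins and engulfment receptors, 6 fell, 0 rose and 5 did not pass (median log2 fold change -0.26, against 0.018 over all genes tested, of which 28.8% were called lower and 25.9% higher). With upper-quartile scaling 5 fell and 2 rose. The TAM receptor gene Tyro3 fell to 6.50 ± 0.326 CPM with Dox, against 43.4 ± 0.991 CPM with vehicle (SD, n = 3 each), a 6.68-fold lower level (adjusted p = 9.9e-07, edgeR), and its relative Axl had 408 ± 4.78 CPM with Dox and 634.5 ± 18.8 CPM with vehicle (adjusted p = 6.5e-06). Itgb5, an integrin subunit that binds MFGE8, had 102 ± 1.95 CPM with Dox and 154 ± 5.83 CPM with vehicle (SD, n = 3 each; adjusted p = 2.2e-05). Of 5 tested genes of phosphatidylserine synthesis and transfer, 4 fell and 1 did not pass, but 2 fell with upper-quartile scaling, without Dox replicate 1 and without Dox replicate 3. Osbpl5, a lipid transfer protein, fell by 0.72 on the log2 scale (adjusted p = 7.5e-05), Ptdss1, a phosphatidylserine synthase, by 0.36 (0.0030) and Osbpl8 by 0.22 (0.017). The call of Osbpl8 was lost with upper-quartile scaling (log2 fold change -0.12, adjusted p = 0.080), without Dox replicate 1 (-0.20, 0.053) and without Dox replicate 3 (-0.19, 0.051).

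Scramblases of internal membranes did not move one way. Of 4 tested genes, 2 rose, 1 fell and 1 did not pass, beside 25.9% called higher and 28.8% called lower over all genes tested. Tmem41b, a scramblase of the endoplasmic reticulum, fell to 12.7 ± 1.03 CPM with Dox, against 34.5 ± 5.85 CPM with vehicle (SD, n = 3 each; adjusted p = 1.6e-04, edgeR). Atg9a, the autophagosomal scramblase, had 194, 196 and 146 CPM with Dox, against 115, 113 and 107 CPM with vehicle (adjusted p = 0.0025), and 31.8% of its exonic bases overlap Gm29253 on the same strand. Vmp1 rose by 0.094 on the log2 scale (adjusted p = 0.029), a call lost in 8 of 12 alternatives, where adjusted p reached 0.086; those include leaving out any 1 library other than vehicle replicate 3. Among 6 tested lipid-exporting ABC transporters, 3 fell, 2 rose and 1 did not pass, beside the same shares over all genes tested. Abca7 fell by 0.53 (adjusted p = 3.8e-05) and Abcc1 by 0.25 (2.1e-04), while Abcb1b rose by 0.34 (1.8e-04) on the log2 scale.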
